A study of Mus musculus with 12 samples.

Results

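The comparison of UIR with sham surgery in kidneys of PTCKO mice was examined across the whole transcriptome. PTCKO mice carry floxed alleles of Wwp2, which encodes a ubiquitin ligase with a HECT domain, with a knockout meant for the proximal tubule alone. They were males on a C57BL/6J background, 8 weeks old, and the sources used here do not name the driver of the Cre recombinase. UIR is written as the labels give it, and the series describes it as a model of the passage from acute kidney injury to chronic kidney disease. How long after surgery the kidneys were taken is likewise not named. The comparison used 3 libraries labelled PTCKO UIR and 3 labelled PTCKO sham out of 12 in the series, and 15322 of the 18803 genes in the table were expressed enough to test. The other 6 libraries, sham and UIR kidneys of WT mice with the same floxed alleles, served to estimate the spread and to ask where the UIR effect differed between genotypes. The series names 6 to 8 mice in each group, and the labels number libraries but do not say which mouse or mice each came from, so p-values cover the spread among libraries only.

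The proximal tubule reabsorbs most of the filtered sodium, glucose, amino acids and phosphate, and fuels this work by oxidising fatty acids in its many mitochondria. After an ischaemic or toxic injury its cells lose their brush border and transport proteins, re-express embryonic and adhesion genes, and divide to replace lost neighbours. When repair fails, injured tubule cells persist, leukocytes and fibroblasts gather between the tubules and matrix accumulates.

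Library totals were 15495163 to 19610217 expected counts, and libraries of a PTCKO group correlated at 0.982 to 0.989 (log2 CPM). The first principal component of the 6 PTCKO libraries separated UIR from sham and carried 91.0% of their variance. Every kidney marker checked was present in each of the 6 libraries, from the phosphate transporter Slc34a1 of the proximal tubule, at no less than 619 FPKM, to the water channel Aqp2 of the collecting duct, at no less than 12.9. Wwp2 itself had 15.6, 16.1 and 17.6 FPKM in the sham libraries and 22.3, 19.3 and 20.5 in the UIR libraries. Reads over the whole gene in whole kidney cannot show a deletion limited to some exons of proximal tubule cells, so the genotype rests on the labels. Its log2 fold change was -0.28 (SE 0.07, adjusted p = 0.00352) and turned to 0.23 without scaling factors, so no direction is drawn for it. Strain-specific gene copies differed between libraries of the PTCKO groups. Ren2, a renin gene that C57BL/6 mice lack and some other strains carry, had 8.91, 7.43 and 10.6 FPKM in the sham libraries and 0, 0 and 0 in the UIR libraries, and the beta-globin gene Hbb-b1, of a haplotype that C57BL/6 mice also lack, had 232, 5.13 and 106 FPKM in the sham libraries and 2.19, 0.79 and 2.82 in the UIR libraries. Ren2 thus followed the surgery groups, so a strain difference at this gene cannot be told apart from UIR in these 6 libraries. The part of such differences in the results below was not tested.

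Of 15322 genes, 11305 (73.8%) were called by the quasi-likelihood test of edgeR at a Benjamini-Hochberg adjusted p under 0.05. The 5969 genes called higher were 39.0% of those tested and the 5336 called lower were 34.8%. At least 2-fold changes were called in 5900 genes, 3661 higher and 2239 lower, and changes of at least 8-fold in 1177 higher and 256 lower. The largest rises were thus more numerous than the largest falls, while the median of all genes was 0.06 on the log2 scale. These values carry TMM scaling factors, 0.829 to 0.855 for sham and 1.17 to 1.25 for UIR libraries. Without scaling factors the median of all genes was 0.57, and the split was 9436 higher against 2791 lower. FPKM levels below carry no such factor, so ratios of their means lie above the fitted fold changes.

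**Figure D1:**
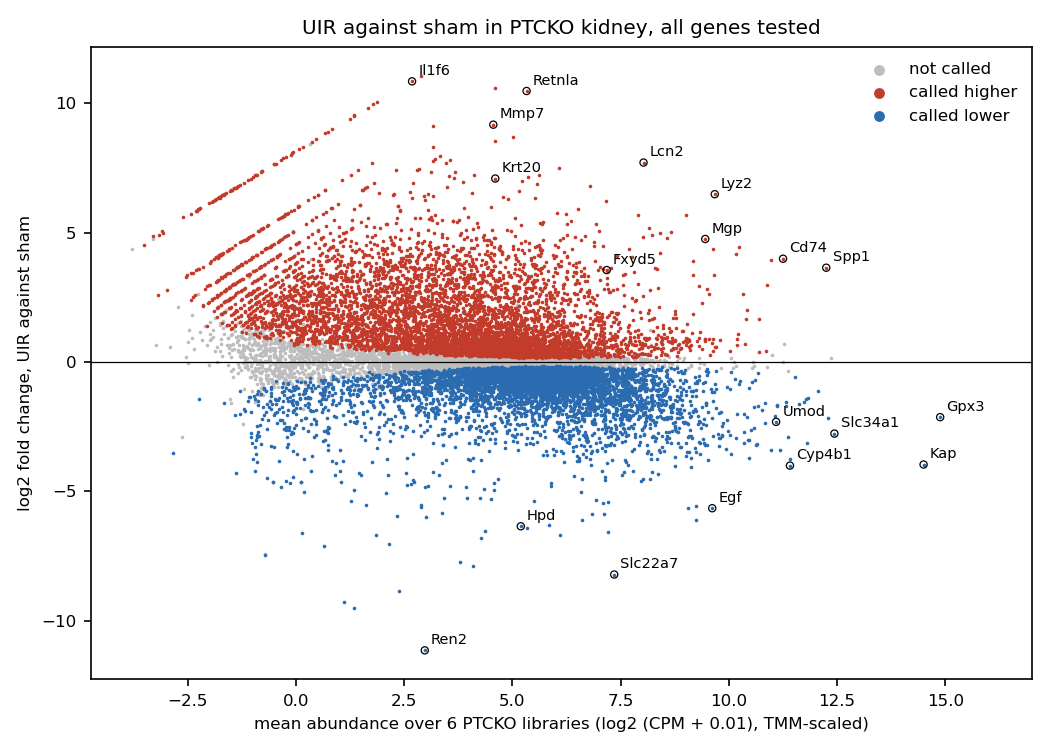
Log2 fold change of UIR against sham in PTCKO kidney (vertical axis) against mean abundance over the 6 PTCKO libraries (horizontal axis, log2 CPM) for each of the 15322 genes tested. Red points are the 5969 genes called higher, blue points the 5336 called lower and grey points those not called, with named genes of the largest changes labelled. Diagonal lines of points at low abundance are genes with few or no counts in some libraries.

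The make-up of the transcriptome shifted most in its most abundant genes. Kap, an androgen-induced protein of the mouse proximal tubule, held 11.7%, 12.2% and 10.1% of the TPM of the sham libraries and 0.636%, 1.08% and 1.42% of the UIR libraries. Its level was 67407, 71911 and 57597 FPKM in the sham libraries and 3709.8, 5896 and 8388 in the UIR libraries (log2 fold change -3.96, SE 0.31, adjusted p = 7.66e-08). The 10 most abundant genes of a library held 21.3% to 21.9% of TPM after sham and 7.69% to 8.97% after UIR, and 50% of TPM was reached with 245 to 256 genes after sham and 355 to 452 after UIR. UIR kidneys thus spread their transcripts over more genes. After Kap, the largest losses of TPM included those of the plasma glutathione peroxidase Gpx3, the aminoacylase Acy3, the sodium pump regulator Fxyd2, Slc34a1, ferritin heavy chain Fth1, the tissue kallikrein Klk1, the cytochrome Cyp4b1 and the urea cycle enzyme Ass1. Gpx3 was at 27395, 24322 and 32736 FPKM in the sham libraries and 10333, 5874 and 11169 in the UIR libraries, with a log2 fold change of -2.13 that became 0.11 under quantile normalisation.

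The largest gains were those of osteopontin (Spp1), the class II invariant chain Cd74, apolipoprotein E (Apoe), beta-2-microglobulin (B2m), matrix Gla protein (Mgp), the thymosins Tmsb4x and Tmsb10, the class II chains H2-Aa and H2-Ab1, and clusterin (Clu). Spp1, a phosphoprotein secreted by injured tubules and by macrophages, was at 403, 489.6 and 439 FPKM in the sham libraries and 7828, 6242 and 9599 in the UIR libraries (log2 fold change 3.65, SE 0.18, adjusted p = 1.33e-09). Mgp, an inhibitor of calcification made by fibroblasts and vessel walls, was at 87.7, 66.9 and 68.5 FPKM in the sham libraries and 2689, 2905 and 3021 in the UIR libraries (log2 fold change 4.76, SE 0.19, adjusted p = 3.34e-10). B2m, the light chain of class I molecules, was at 371, 407 and 335 FPKM in the sham libraries and 3534, 3254 and 3094 in the UIR libraries (log2 fold change 2.64, SE 0.14, adjusted p = 3.05e-09). In all of these genes the lowest UIR library lay above the highest sham library. Over all genes tested, 11725 of 15322 (76.5%) had no overlap between UIR and sham libraries in TMM-scaled CPM. In whole tissue, a change in the number of cells of a type and a change in RNA per cell cannot be told apart.

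**Figure D2:**
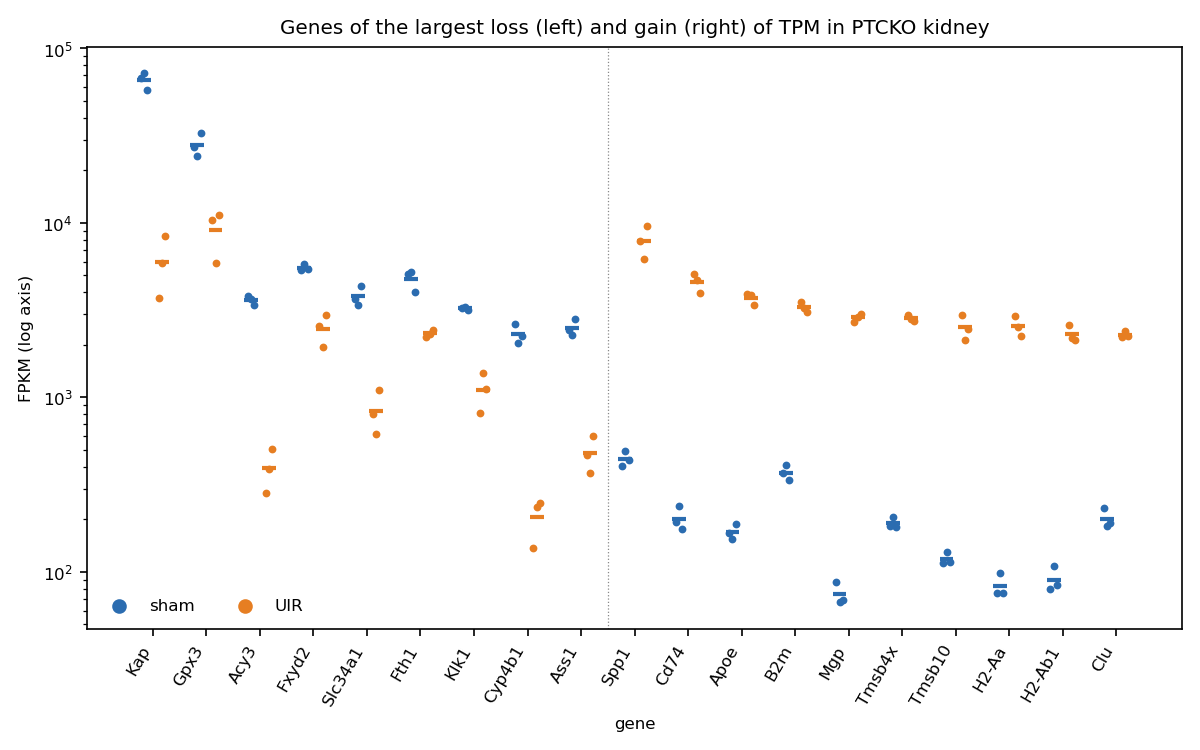
FPKM in each of the 3 sham (blue) and 3 UIR (orange) libraries of PTCKO kidney, on a log axis, for genes of the largest gain or loss of TPM; 1 point is 1 library and the horizontal bars are group means. The groups do not overlap for any of the genes shown, and in TMM-scaled CPM they do not for 76.5% of all genes tested.

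Promoters show the sequence next to some of these genes, as the 250 bases before the transcription start in RefSeq (GRCm38.p6), written 5′ to 3′ on the gene's strand, with motif matches in capitals. B2m is shown because it rose with class I and interferon-induced genes, Mmp7 and Spp1 because they were among the largest fold rises and the largest gains of TPM, and Hpd and Cyp4b1 because they were among the largest fold falls and losses of TPM.
B2m (chr2:122147437-122147686, strand +): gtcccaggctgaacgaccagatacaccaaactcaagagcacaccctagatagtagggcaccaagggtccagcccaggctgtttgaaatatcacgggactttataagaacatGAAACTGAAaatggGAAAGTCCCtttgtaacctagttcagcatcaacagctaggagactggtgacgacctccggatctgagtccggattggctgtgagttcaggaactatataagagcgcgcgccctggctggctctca
Mmp7 (chr9:7691840-7692089, strand +): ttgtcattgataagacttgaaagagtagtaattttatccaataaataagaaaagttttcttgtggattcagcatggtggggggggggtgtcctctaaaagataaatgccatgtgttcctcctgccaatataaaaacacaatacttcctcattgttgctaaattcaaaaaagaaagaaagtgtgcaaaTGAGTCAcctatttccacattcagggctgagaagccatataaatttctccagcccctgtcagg
Spp1 (chr5:104434861-104435110, strand +): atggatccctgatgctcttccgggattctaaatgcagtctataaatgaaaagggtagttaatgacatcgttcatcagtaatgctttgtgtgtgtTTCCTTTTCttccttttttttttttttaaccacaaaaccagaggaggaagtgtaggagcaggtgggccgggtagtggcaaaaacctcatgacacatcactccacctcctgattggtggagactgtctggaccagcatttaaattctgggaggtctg
Hpd (chr5:123182724-123182973, strand -): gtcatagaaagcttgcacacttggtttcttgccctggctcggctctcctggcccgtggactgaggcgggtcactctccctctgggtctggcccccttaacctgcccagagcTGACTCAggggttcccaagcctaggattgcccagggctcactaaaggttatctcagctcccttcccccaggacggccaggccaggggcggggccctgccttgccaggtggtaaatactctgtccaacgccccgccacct
Cyp4b1 (chr4:115647722-115647971, strand -): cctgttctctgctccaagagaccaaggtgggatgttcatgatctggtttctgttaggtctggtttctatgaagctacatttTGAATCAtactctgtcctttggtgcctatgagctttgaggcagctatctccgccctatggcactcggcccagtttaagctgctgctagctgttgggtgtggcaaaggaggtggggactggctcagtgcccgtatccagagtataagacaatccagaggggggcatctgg

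Capitals in B2m mark GAAANNGAA (the core of an interferon-stimulated response element) and, reversed, GGGANTTTC (an NF-kB site), 139 and 125 bases before the start. In Spp1 they mark GAAANNGAA reversed, and in Mmp7, Hpd and Cyp4b1 TGANTCA (an AP-1 site). Windows of 300 bases, 250 before to 50 after a start, were searched on both strands. The genes searched were those of the 12 largest fold rises or falls and the 10 largest gains or losses of TPM that have an entry in the table, 15 genes that rose with 21 promoters and 17 that fell with 18. Some genes have several promoters, which are not independent of each other. GAAANNGAA was found in 8 of 21 promoters of the risers (38.1%) and 1 of 18 of the fallers (5.56%), against 8.56% of all 32851 promoters. It was in 4 of 51 promoters of proximal tubule transporters (7.84%), near the share of all promoters, and TGANTCA in 2 of them. TGANTCA was found in 2 of 21 and 3 of 18, against 7.81% of all. GGGANTTTC was found in 1 of 21 and 0 of 18, against 1.11%, and GTTAATNAT (HNF1) and TCAAGGTCA (ERR) in none of either group, against 0.801% and 0.423%. A match describes these letters and was not tested as a binding site.

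The largest fold rises began at or near 0. Il1f6, an epithelial cytokine of the interleukin-1 family, was at 0 in every sham library and at 17.1, 15.7 and 22.7 FPKM after UIR, at least 57.5-fold higher against a floor of 3 counts per library. The sperm-coat-type secreted protein Crisp1 (at least 32.6-fold) and the signal regulatory protein Sirpb1b (at least 28.3-fold) likewise had 0 in every sham library. Mmp7, the matrilysin of injured tubules, was at 0.07, 0.14 and 0 FPKM in the sham libraries and 68.8, 28.7 and 71.5 in the UIR libraries (log2 fold change 9.17, SE 0.71, adjusted p = 6.42e-08). Retnla, a product of alternatively activated macrophages, was at 0.13, 0.13 and 0 FPKM in the sham libraries and 136, 393 and 68.0 in the UIR libraries, so its UIR libraries differed several-fold among themselves. Cxcl5, a neutrophil chemoattractant, was at 0.04, 0 and 0 FPKM in the sham libraries and 17.3, 8.56 and 14.2 in the UIR libraries. Ear2, Fcrls and Clec4n of myeloid cells, the cornified envelope protein Sprr2f and the adhesion receptor Adgra1 were also among the 12 largest, with fitted log2 fold changes of 7.83 to 8.69. Fitted values of genes near 0 move with single libraries: Mmp7 gave 10.05 without sham 2, Cxcl5 11.35 without sham 1 (from 9.13), Fcrls 12.80 without sham 2 (from 8.54), Adgra1 8.83 without sham 3, Clec4n 8.73 without sham 1, and Retnla 9.54 without UIR 2 (from 10.47). All kept an adjusted p under 0.05. Rps27rt, a near-copy of Rps27 whose reads are shared by estimate, was also among the largest rises (log2 fold change 9.53, or 7.87 without UIR 2) and is uncertain.

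The largest fold falls were led by secretory transporters and enzymes of the proximal tubule. Slc22a7, an organic anion transporter of its basolateral side, was at 154, 209 and 57.6 FPKM in the sham libraries and 0.66, 0.26 and 1.10 in the UIR libraries (log2 fold change -8.21, SE 0.59, adjusted p = 3.15e-08). Its relatives Slc22a19, Slc22a26 and Slc22a13 had log2 fold changes of -6.68, -6.51 and -6.31, within a gene family whose similar members make counts uncertain. Hpd, an enzyme of tyrosine breakdown, was at 44.0, 40.0 and 51.6 FPKM in the sham libraries and 0.19, 0.83 and 1.24 in the UIR libraries (log2 fold change -6.35, SE 0.28, adjusted p = 5.77e-10). Others were C8a, a subunit of the complement membrane attack complex, from 9.16, 11.8 and 8.62 to 0, 0.21 and 0.13 FPKM, the progesterone-reducing enzyme Akr1c18, from 9.72, 42.2 and 8.88 to 0.12, 0 and 0.27 FPKM, the adhesion molecule Ceacam2, from 5.87, 16.2 and 4.79 to 0, 0.03 and 0.12 FPKM, and the antiprotease Serpina1d, from 143, 261 and 132 to 0.16, 3.19 and 3.86 FPKM, which belongs to a cluster of near-identical genes. Sham 2 held the highest level of Slc22a7, Ceacam2, Akr1c18 and Serpina1d. That no sham library overlapped a UIR library was a condition for naming the largest falls. Without UIR 3 the log2 fold changes were -8.85 for Slc22a7, -7.44 for Slc22a26, -7.02 for Slc22a13, -9.31 for Ceacam2 (from -7.87) and -9.004 for Akr1c18 (from -7.72). Without sham 2 they were -7.14 for Ceacam2 and -6.61 for Akr1c18, and without UIR 2 -7.08 for Akr1c18 and -7.56 for C8a (from -6.81). Ren2 (at least 113-fold lower), the replication-dependent histone H3c14 (at least 36.0-fold lower) and Hbb-b1 (-6.42, or -5.35 without sham 1) were also among the 12 largest falls but have near-identical copies or strain-specific alleles and are uncertain.

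**Figure D3:**
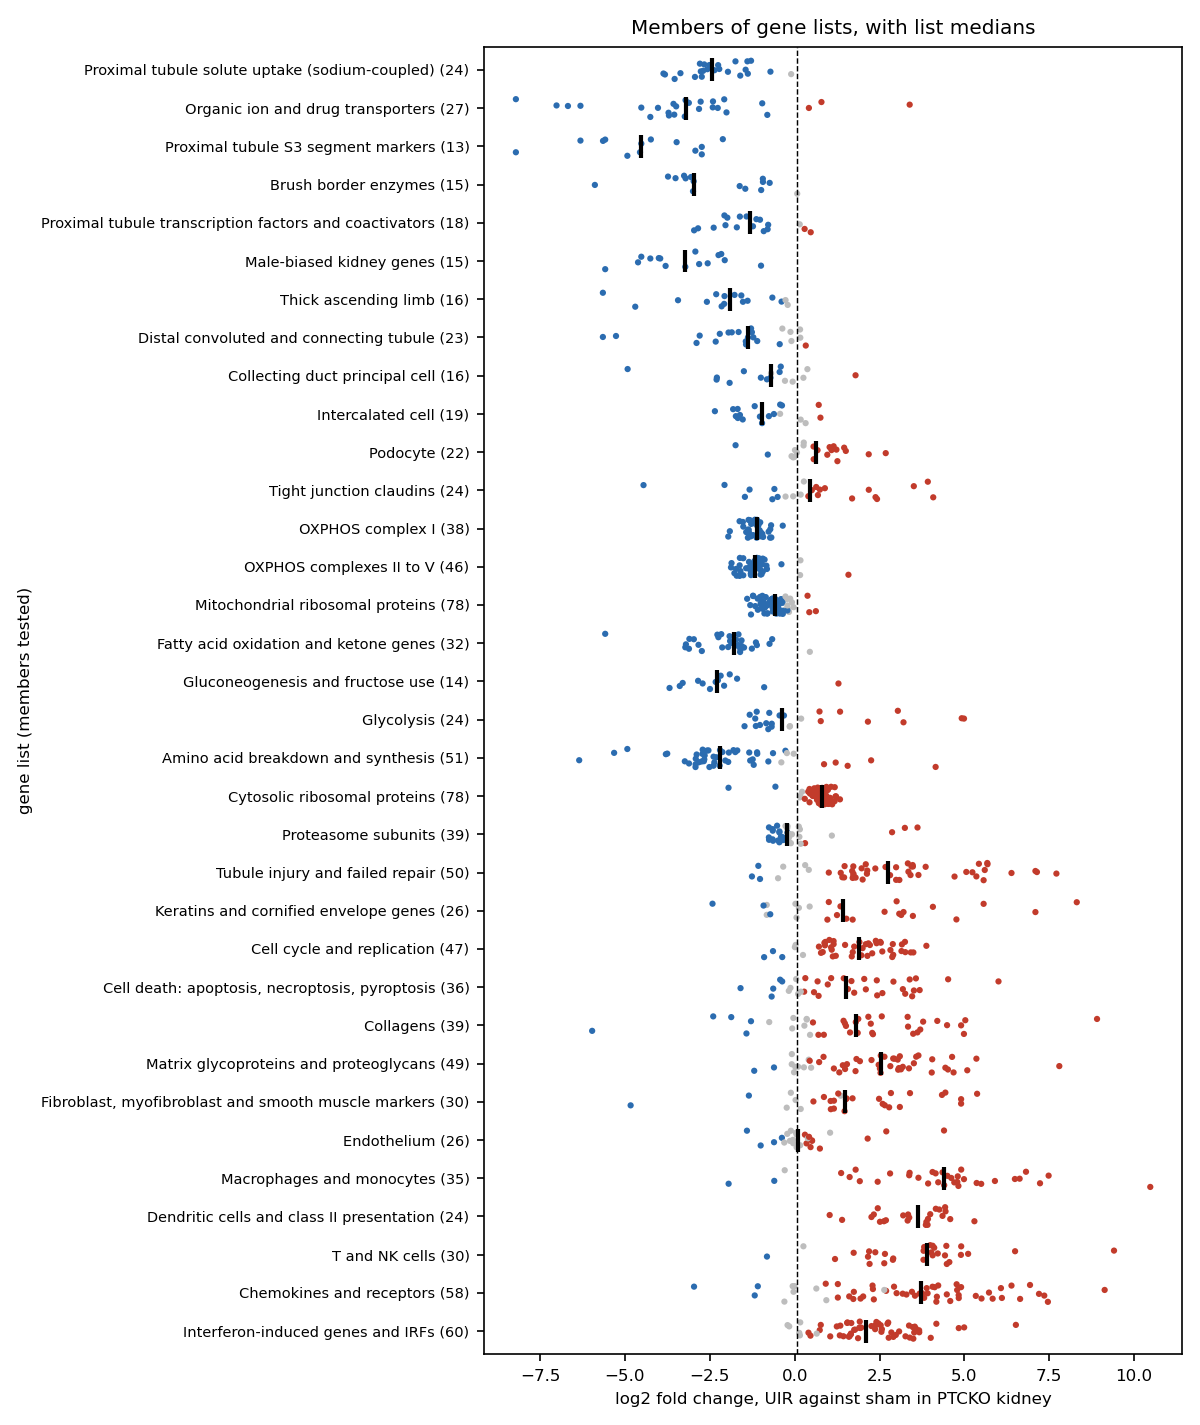
Log2 fold change of UIR against sham in PTCKO kidney for each tested member (points) of gene lists grouped by role, with the list median as a bar; red, blue and grey points are called higher, called lower and not called, and the dashed line is the median of all genes (0.06). Tubule transport and mitochondrial lists lie left of 0 and matrix and immune lists right of it.

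Along the nephron, genes of proximal tubule transport, brush border and the S3 segment fell almost throughout. Of 24 genes of sodium-coupled solute uptake 23 fell and 0 rose (median log2 fold change -2.44), against 39.0% higher and 34.8% lower of all genes. Slc34a1, which takes up phosphate, was at 3658, 3401 and 4331 FPKM in the sham libraries and 804, 619 and 1097 in the UIR libraries (log2 fold change -2.77, SE 0.28, adjusted p = 1.03e-06). Of 27 organic ion and drug transporters 24 fell and 3 rose (median -3.21), the efflux pump Abcc3, from 0.26, 0.33 and 0.41 to 5.37, 5.71 and 4.00 FPKM, among the risers. All 13 tested markers of the S3 segment, the last part of the proximal tubule and the most prone to ischaemic injury, fell (median -4.52). Slc7a13, the aspartate and glutamate exchanger of that segment, was at 465, 428 and 383 FPKM in the sham libraries and 6.49, 13.8 and 15.9 in the UIR libraries (log2 fold change -5.65, SE 0.29, adjusted p = 1.70e-09). Among endocytic receptors 8 of 9 fell, with megalin (Lrp2) from 143, 122 and 143 to 21.3, 21.9 and 27.9 FPKM and cubilin (Cubn) from 44.5, 41.5 and 41.3 to 8.09, 5.93 and 9.52 FPKM (median -1.54). Of 15 brush border enzymes 14 fell and 0 rose (median -2.98).

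Transcription factors that keep the proximal tubule differentiated fell as well. Of 18 tested, 15 fell and 2 rose (median -1.32). Hnf4a, the nuclear receptor that drives the brush border programme, was at 238, 194 and 242 FPKM in the sham libraries and 61.9, 53.1 and 69.6 in the UIR libraries (log2 fold change -2.39, SE 0.17, adjusted p = 3.97e-08). The log2 fold changes of Klf15 and the fatty acid receptor Ppara were -2.96 and -2.85. Genes of male kidney, which androgens raise in the proximal tubule, fell in 15 of 15 cases (median -3.22) and went from 11.4 to 13.4% of TPM after sham to 0.804 to 1.67% after UIR, Kap being the largest member.

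Lists of distal segments also fell, with medians nearer 0 for the collecting duct. Of 16 thick ascending limb genes 14 fell and 0 rose (median -1.92), of 23 distal convoluted and connecting tubule genes 17 fell and 1 rose (-1.38), of 16 principal cell genes 10 fell and 1 rose (-0.70), and of 19 intercalated cell genes 14 fell and 2 rose (-0.96). Without scaling factors the principal cell count was 4 higher and 6 lower. Egf, the growth factor made by the distal tubule, was at 333, 383 and 258 FPKM in the sham libraries and 5.05, 6.36 and 18.1 in the UIR libraries (log2 fold change -5.65, SE 0.47, adjusted p = 1.31e-07), or -6.48 without UIR 3. Uromodulin (Umod) was at 1007, 1856 and 709 FPKM in the sham libraries and 283, 232 and 504 in the UIR libraries (log2 fold change -2.31, SE 0.36, adjusted p = 5.27e-05), and the sodium-potassium-chloride cotransporter Slc12a1 at 151, 267 and 139 FPKM in the sham libraries and 46.7, 76.9 and 64.8 in the UIR libraries (log2 fold change -2.08, SE 0.26, adjusted p = 6.84e-06). Sham 2 stood highest for both and for the water channel Aqp2, which had 83.0, 139 and 88.3 FPKM in the sham libraries and 21.3, 12.9 and 54.6 in the UIR libraries (log2 fold change -2.29, SE 0.50, adjusted p = 9.53e-04). Without UIR 3, the highest of its group, Aqp2 was at -3.14. How much medulla each piece of tissue held was not stated in the sources, and its part in these values was not tested. Sodium pump and FXYD regulator genes more often rose, with 8 of 13 higher and 3 lower (median 1.50). Of the sodium pump, the beta subunit Atp1b1 (-1.59) fell, as did the regulator Fxyd2 (-1.65), while Fxyd5, a regulator that loosens epithelial adhesion, was at 19.5, 20.0 and 19.0 FPKM in the sham libraries and 359.8, 319 and 304 in the UIR libraries (log2 fold change 3.55, SE 0.14, adjusted p = 2.69e-10). Fxyd1 (2.85) rose with it.

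Podocyte genes more often rose than fell. Of 22 tested, 13 rose, 2 fell and 7 were not called (median 0.62), against 39.0% higher and 34.8% lower of all genes. Without scaling factors 20 were higher and 1 lower. Tcf21, a transcription factor of podocytes and of stromal progenitors, was at 7.57, 10.7 and 8.32 FPKM in the sham libraries and 67.3, 110.1 and 67.4 in the UIR libraries (log2 fold change 2.68, SE 0.24, adjusted p = 3.22e-07), highest in UIR 2. The angiogenic factor Vegfa, which the thick ascending limb also makes, was at 109, 93.8 and 106 FPKM in the sham libraries and 44.0, 46.1 and 44.5 in the UIR libraries (log2 fold change -1.74, SE 0.10, adjusted p = 2.95e-09). Claudins, which set what passes between tubule cells, changed in both directions, with 13 of 24 junction genes higher and 7 lower. All genes did so too (39.0% higher and 34.8% lower), and the falls of claudins lay near that share. Cldn4, a barrier-forming claudin of distal segments, was at 7.86, 6.68 and 7.55 FPKM in the sham libraries and 119, 128 and 113 in the UIR libraries (log2 fold change 3.51, SE 0.14, adjusted p = 3.28e-10), and Cldn1, Cldn3 and Cldn7 rose by 2.38, 2.43 and 2.18. The leaky proximal claudin Cldn2 fell (log2 fold change -1.33), as did Cldn10 (-2.07) of the thick limb and Cldn12 (-1.47).

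Nuclear genes of the respiratory chain fell almost throughout. All 38 tested nuclear-encoded genes of complex I fell (median log2 fold change -1.10), as did 43 of 46 of complexes II to V (-1.18) and 66 of 78 mitochondrial ribosomal proteins (-0.57), of which 3 rose. The count for mitochondrial ribosomal proteins depended on scaling, with 12 higher and 27 lower without scaling factors (median -0.059), and their summed FPKM overlapped, at 4028 to 4332 after sham and 3429 to 4087 after UIR. Ndufs1, the largest subunit of complex I, was at 116, 121 and 109 FPKM in the sham libraries and 39.1, 40.9 and 47.2 in the UIR libraries (log2 fold change -1.96, SE 0.12, adjusted p = 7.44e-09). Cox6b2, the testis form of a complex IV subunit, rose instead, with 7.15, 7.27 and 8.80 FPKM in the sham libraries and 37.7, 31.5 and 31.2 in the UIR libraries (log2 fold change 1.58, SE 0.18, adjusted p = 3.44e-06). Genes of mitochondrial dynamics, import and genome maintenance fell in 31 of 37 cases, with the chaperonin Hspd1 from 307, 295 and 273 to 84.0, 93.9 and 105 FPKM and the mitophagy kinase Pink1 at -1.57. Their single riser was the uncoupling protein homologue Ucp2, at 89.0, 70.0 and 73.2 FPKM in the sham libraries and 359.8, 324 and 332 in the UIR libraries (log2 fold change 1.61, SE 0.17, adjusted p = 1.31e-06).

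Genes of fuel oxidation fell with them. Of 32 fatty acid oxidation and ketone genes 31 fell and 0 rose (median -1.79), of 38 peroxisomal genes 36 fell and 2 rose (-1.62), and of 26 TCA cycle and pyruvate entry genes 25 fell and 1 rose (-1.68). The medium-chain dehydrogenase Acadm was at 502, 687 and 410.1 FPKM in the sham libraries and 71.9, 83.0 and 89.5 in the UIR libraries (log2 fold change -3.22, SE 0.19, adjusted p = 6.52e-09). In gluconeogenesis and fructose use 13 of 14 genes fell (-2.29), and the isozymes of its first committed step parted: the cytosolic Pck1 was at 1445, 1040.3 and 1089 FPKM in the sham libraries and 95.8, 174 and 218 in the UIR libraries (log2 fold change -3.39, SE 0.29, adjusted p = 2.13e-07), and the mitochondrial Pck2 at 4.10, 5.12 and 4.29 FPKM in the sham libraries and 16.4, 16.5 and 15.9 in the UIR libraries (log2 fold change 1.29, SE 0.08, adjusted p = 8.72e-09). Glycolysis was mixed, with 8 of 24 genes higher and 13 lower, against 39.0% higher and 34.8% lower of all genes. Its median of -0.38 turned to 0.13 without scaling factors. The inducible hexokinase Hk2 was at 0.10, 0.05 and 0.05 FPKM in the sham libraries and 3.33, 3.35 and 2.79 in the UIR libraries (log2 fold change 4.99, SE 0.27, adjusted p = 2.63e-09), and Eno2 (3.21) rose too. The abundant enzymes Gapdh and Pgk1 fell, with log2 fold changes of -1.12 and -1.48, and Gapdh was no longer called under quantile normalisation (-0.20).

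Genes of amino acid, cofactor and drug metabolism mostly fell. Of 51 amino acid enzymes 43 fell and 5 rose (median -2.21). The asparagine synthetase Asns, a target of the integrated stress response, was at 2.30, 2.76 and 2.63 FPKM in the sham libraries and 10.9, 10.2 and 11.1 in the UIR libraries (log2 fold change 1.56, SE 0.13, adjusted p = 1.75e-07). In the tryptophan route to NAD, Kmo, Haao and Acmsd fell (-3.08, -3.06 and -2.94 on the log2 scale), and the nicotinamide methyltransferase Nnmt (3.24) and the NAD-consuming Cd38 (1.81) and Parp14 (2.48) rose. NAD genes as a list had 15 of 23 lower and 5 higher. Of 47 cytochromes P450 30 fell and 11 rose, and of 58 conjugation enzymes 37 fell and 10 rose. Cyp4b1 was at 2637, 2051 and 2251 FPKM in the sham libraries and 138, 234 and 247 in the UIR libraries (log2 fold change -4.002, SE 0.26, adjusted p = 1.28e-08), and Cyp1b1, which stromal cells express, at 6.16, 6.16 and 5.86 FPKM in the sham libraries and 51.6, 62.8 and 44.3 in the UIR libraries (log2 fold change 2.57, SE 0.17, adjusted p = 1.24e-08). Sterol and fatty acid synthesis had 20 of 34 lower and 6 higher, with the desaturase Scd1 at 71.0, 46.0 and 106 FPKM in the sham libraries and 5.55, 5.29 and 6.46 in the UIR libraries (log2 fold change -4.20, SE 0.26, adjusted p = 8.15e-09). Without scaling factors the sterol and fatty acid count was 13 higher and 15 lower, and the list median went from -0.57 to -0.053.

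Antioxidant and iron genes were mostly lower, in 27 of 38 cases against 7 higher. Catalase (Cat) was at 550.2, 540.1 and 474 FPKM in the sham libraries and 85.6, 102 and 108 in the UIR libraries (log2 fold change -2.92, SE 0.13, adjusted p = 5.87e-10), and the antioxidant-response genes Nqo1 (-2.95) and Gclm (-2.54) fell. Ceruloplasmin (Cp), a copper-carrying ferroxidase, was at 6.49, 8.81 and 11.9 FPKM in the sham libraries and 181, 159.7 and 163 in the UIR libraries (log2 fold change 3.64, SE 0.17, adjusted p = 7.96e-10), and the metallothioneins Mt1 and Mt2 rose by 1.33 and 2.69. Of 19 genes of calcium and phosphate handling 11 fell and 5 rose. Klotho (Kl), the coreceptor for a phosphate-lowering hormone, was at 165, 148 and 154 FPKM in the sham libraries and 26.4, 23.3 and 40.0 in the UIR libraries (log2 fold change -2.89, SE 0.26, adjusted p = 3.17e-07), and the vitamin D receptor Vdr (-2.01) and the parathyroid hormone receptor Pth1r (-1.66) fell too, while the stanniocalcin Stc2 rose (3.43).

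Protein synthesis genes rose against this. Of 78 cytosolic ribosomal protein genes 73 rose and 2 fell (median 0.80), and their summed share of TPM went from 4.79 to 5.10% after sham to 11.1 to 12.7% after UIR. Rpl12 of the large subunit was at 286, 341 and 328 FPKM in the sham libraries and 1242, 960.2 and 1223 in the UIR libraries (log2 fold change 1.33, SE 0.15, adjusted p = 3.36e-06). The median stayed above 0 under every scaling, from 0.71 to 1.41. Of 39 proteasome genes 4 rose and 20 fell, with a median (-0.22) that turned to 0.29 without scaling factors. The risers included the interferon-induced catalytic subunits Psmb8, from 4.84, 6.28 and 5.37 to 109.7, 92.5 and 87.2 FPKM (log2 fold change 3.62, SE 0.14, adjusted p = 2.69e-10), Psmb9 (3.25) and Psmb10 (2.87). Chaperones fell in 15 of 24 cases, led by Hsph1 (-2.06) and Hspa8 (-1.40), and the risers were the small heat shock proteins Hspb1, from 23.6, 17.9 and 14.7 to 199, 189.6 and 274 FPKM, and Hspb8 (1.93). Without scaling factors the chaperone count was 8 higher and 7 lower, and their summed FPKM overlapped, at 4329 to 5853 after sham and 4111 to 4509 after UIR. Stress response genes had 13 of 24 higher and 6 lower, with the transcription factor Atf3 at 1.55, 1.08 and 2.03 FPKM in the sham libraries and 19.4, 25.8 and 22.8 in the UIR libraries (log2 fold change 3.35, SE 0.27, adjusted p = 9.56e-08). Lysosome and V-ATPase genes had 13 of 34 higher and 14 lower (median 0.05), near the 39.0% higher and 34.8% lower of all genes. Among them the macrophage-rich cathepsins Ctss (5.18) and Ctsk (4.42) rose and the proton pump subunit Atp6v1a fell (-1.65).

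Injury and repair genes rose. Of 50 genes of tubule injury and failed repair 43 rose and 3 fell (median 2.74), the fallers being the plasminogen activator Plau (-1.07), whose FPKM ranges overlapped, the growth factor receptor Met (-1.02) and the antifibrotic ligand Bmp7 (-1.26). Lcn2, a siderophore-binding protein used as an injury marker, was at 1.79, 4.78 and 1.26 FPKM in the sham libraries and 880.5, 588 and 863 in the UIR libraries (log2 fold change 7.71, SE 0.38, adjusted p = 1.33e-09), or 8.47 without sham 2. Vcam1, an adhesion molecule of tubule cells that fail to repair, was at 2.57, 2.63 and 1.75 FPKM in the sham libraries and 174, 166 and 168 in the UIR libraries (log2 fold change 5.67, SE 0.16, adjusted p = 5.18e-11). Sox9, a transcription factor of regenerating tubules, was at 0.26, 0.14 and 0.18 FPKM in the sham libraries and 9.83, 9.66 and 12.0 in the UIR libraries (log2 fold change 5.23, SE 0.21, adjusted p = 3.29e-10), and among 35 developmental factors 24 rose, such as Runx1 (4.41), Klf6 (2.80) and Sox4 (2.68), and 6 fell, such as Lhx1 (-2.50). Keratins and cornified envelope genes had 17 of 26 higher and 3 lower, with Krt20, a keratin of damaged tubules, at 0.16, 0.17 and 0.13 FPKM in the sham libraries and 29.3, 24.0 and 38.3 in the UIR libraries (log2 fold change 7.09, SE 0.30, adjusted p = 4.06e-10), and Krt18 (3.48) and Krt8 (1.71) as an abundant pair. Of 22 AP-1 and EGR genes 16 rose and 0 fell, such as Egr2 (4.83), Maff (2.72) and Junb (1.55).

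Cell division and cell death genes rose together. Of 47 cell cycle and replication genes 41 rose and 3 fell (median 1.91). Mki67, which marks dividing cells, was at 0.30, 0.28 and 0.19 FPKM in the sham libraries and 4.21, 3.24 and 3.09 in the UIR libraries (log2 fold change 3.26, SE 0.20, adjusted p = 6.51e-09), and the replication helicase subunit Mcm3 rose by 2.82. The cell cycle inhibitor Cdkn1a was at 8.61, 7.98 and 8.36 FPKM in the sham libraries and 53.8, 58.1 and 45.4 in the UIR libraries (log2 fold change 2.14, SE 0.14, adjusted p = 1.04e-08). In WT it had 29.7, 42.7 and 30.7 FPKM in the sham libraries and 90.6, 111 and 98.0 in the UIR libraries, so each PTCKO group lay below the WT group of the same surgery. Of 27 inhibitors and p53 targets 20 rose and 4 fell. Genes of apoptosis, necroptosis and pyroptosis had 26 of 36 higher and 5 lower, with the pore-forming Gsdmd at 1.70, 2.26 and 2.41 FPKM in the sham libraries and 37.7, 33.7 and 29.1 in the UIR libraries (log2 fold change 3.46, SE 0.13, adjusted p = 2.69e-10), Casp4 at 4.52 and the inhibitor of death Birc3 at 3.19. Bid, which links death receptors to mitochondria, fell (-1.59).

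Matrix genes rose with fibroblast markers. Of 39 collagen genes 27 rose and 5 fell (median 1.80), of 49 matrix glycoproteins and proteoglycans 39 rose and 2 fell (2.53), and of 47 matrix proteases and inhibitors 36 rose and 4 fell (2.34). Col3a1, a fibrillar collagen, was at 3.76, 4.13 and 3.11 FPKM in the sham libraries and 183, 164 and 165 in the UIR libraries (log2 fold change 5.03, SE 0.25, adjusted p = 1.39e-09). Type IV collagen chains of the basement membrane parted: Col4a1, of the common network, was at 37.1, 37.3 and 31.8 FPKM in the sham libraries and 142, 140.2 and 141 in the UIR libraries (log2 fold change 1.48, SE 0.14, adjusted p = 4.27e-07), and Col4a3, of the network of glomeruli and some tubules, at 32.0, 31.7 and 32.2 FPKM in the sham libraries and 11.8, 13.8 and 12.0 in the UIR libraries (log2 fold change -1.87, SE 0.18, adjusted p = 6.04e-07), with Col4a4 at -1.42. The collagen-shearing Mmp14 was at 2.03, 2.19 and 2.58 FPKM in the sham libraries and 78.1, 71.3 and 67.7 in the UIR libraries (log2 fold change 4.49, SE 0.14, adjusted p = 9.49e-11). Protease inhibitors parted as well, with Timp2 at 12.1, 13.3 and 12.3 FPKM in the sham libraries and 143, 159 and 129 in the UIR libraries (log2 fold change 2.999, SE 0.12, adjusted p = 3.29e-10) and the matrix-bound Timp3 at 527, 463 and 489 FPKM in the sham libraries and 176, 215 and 197 in the UIR libraries (log2 fold change -1.85, SE 0.13, adjusted p = 1.89e-08). Lox, which cross-links collagen, rose by 4.68 on the log2 scale.

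Fibroblast, myofibroblast and smooth muscle markers rose in 23 of 30 cases and fell in 2 (median 1.49), with the actin-binding Tagln at 21.8, 19.5 and 25.2 FPKM in the sham libraries and 229.8, 226 and 199 in the UIR libraries (log2 fold change 2.78, SE 0.14, adjusted p = 1.21e-09). Their summed level was 208 to 218 FPKM over the sham libraries and 925 to 1123 over the UIR libraries. Some growth factor signals moved with them. Of 42 TGF-beta family genes 31 rose and 3 fell, with Tgfb1 at 5.99, 7.08 and 7.15 FPKM in the sham libraries and 69.0, 56.8 and 60.1 in the UIR libraries (log2 fold change 2.69, SE 0.12, adjusted p = 7.77e-10). Of 48 Wnt, Notch and Hippo genes 28 rose and 8 fell. PDGF and vascular growth factor genes had 10 of 21 higher and 7 lower (median 0.23). Renin-angiotensin, endothelin and vasoactive genes had 10 of 24 higher and 9 lower (0.06). Both lists lie near the shares of all genes. Single genes that rose were the PDGF receptors of mesenchymal cells, Pdgfrb (2.59) and Pdgfra (2.84), and endothelin Edn1 (3.73) with its receptor Ednra (3.03). In the EGF and FGF families 11 of 25 rose and 11 fell, among them Fgf2 (2.59) and Fgf1 (-2.61) in opposite directions. These shares lie near those of all genes (39.0% higher and 34.8% lower), and the median of -0.21 turned to 0.30 without scaling factors. Of 56 TNF superfamily and NF-kB genes 47 rose, with the NF-kB subunit Relb at 1.71, 2.02 and 1.93 FPKM in the sham libraries and 42.0, 36.9 and 38.3 in the UIR libraries (log2 fold change 3.80, SE 0.10, adjusted p = 4.83e-11).

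Integrins and laminins rose in 28 of 36 cases and fell in 4, the fallers including Itgb8 (-2.16), an activator of latent TGF-beta. Endothelial genes had a share of rises near the 39.0% of all genes, with 10 of 26 higher, 4 lower and 12 not called (median 0.11), or 19 higher and 2 lower without scaling factors. Icam1, which activated endothelium and injured tubules display, was at 8.99, 9.34 and 9.78 FPKM in the sham libraries and 90.0, 81.1 and 89.2 in the UIR libraries (log2 fold change 2.70, SE 0.09, adjusted p = 1.37e-10). Among relatives of Wwp2, 2 of 8 NEDD4-family ligases rose and 5 fell, against 34.8% lower among all genes. Without scaling factors the count was 3 higher and 1 lower and the median went from -0.50 to 0.019, and summed FPKM was 147 to 158 after sham and 187 to 202 after UIR. Wwp1 was at 36.0, 32.8 and 37.4 FPKM in the sham libraries and 14.7, 16.8 and 16.6 in the UIR libraries (log2 fold change -1.66, SE 0.09, adjusted p = 3.82e-09). Clock genes fell in 13 of 20 cases and rose in 5, with the output factor Hlf at 24.9, 21.5 and 21.8 FPKM in the sham libraries and 3.02, 4.04 and 4.15 in the UIR libraries (log2 fold change -3.12, SE 0.16, adjusted p = 1.98e-09). Without scaling factors the clock count was 6 higher and 6 lower. The time of day of tissue collection was not stated.

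Immune genes rose almost throughout. Of 35 macrophage and monocyte genes 32 rose and 2 fell (median 4.40), the fallers being the phagocytic receptor Mertk (-0.60, or -0.08 and no longer called without scaling factors), whose FPKM ranges overlapped, and the lipase Lpl (-1.95), which other cells also express. Lyz2, the lysozyme of myeloid cells, was at 12.4, 20.6 and 12.3 FPKM in the sham libraries and 2017, 2296 and 1511 in the UIR libraries (log2 fold change 6.49, SE 0.29, adjusted p = 6.42e-10), and the C1q chain C1qa at 16.8, 18.7 and 15.4 FPKM in the sham libraries and 895, 711 and 700.4 in the UIR libraries (log2 fold change 4.99, SE 0.19, adjusted p = 2.69e-10). All 24 tested dendritic cell and class II genes rose (median 3.62), as did all 12 tested genes of the Ms4a cluster, 17 of 18 class I genes, 28 of 30 T and NK cell genes (3.90) and 9 of 13 neutrophil genes (2.71). H2-Aa, a class II chain, was at 75.8, 97.9 and 76.1 FPKM in the sham libraries and 2909.7, 2540.2 and 2248 in the UIR libraries (log2 fold change 4.43, SE 0.17, adjusted p = 2.52e-10). Cd3g, of the T cell receptor complex, was at 0.83, 0.84 and 0.65 FPKM in the sham libraries and 36.5, 33.5 and 30.3 in the UIR libraries (log2 fold change 4.90, SE 0.19, adjusted p = 2.69e-10). By summed level, macrophage genes reached 16832 to 18244 FPKM after UIR, T and NK cell genes 319 to 367 and neutrophil genes 56.6 to 84.3. The lists differ in the number and abundance of their members, so these sums do not rank cell types by number. The neutrophil marker Ly6g fell, with 1.10, 0.67 and 1.26 FPKM in the sham libraries and 0.15, 0.12 and 0.19 in the UIR libraries (log2 fold change -3.17, SE 0.46, adjusted p = 3.18e-05).

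Genes of soluble immune signals rose as well. Of 58 chemokines and receptors 48 rose and 3 fell (median 3.72). Ccl2, which draws monocytes, was at 0.82, 1.00 and 0.33 FPKM in the sham libraries and 103, 80.1 and 78.0 in the UIR libraries (log2 fold change 6.39, SE 0.21, adjusted p = 1.37e-10), while the epithelial chemokine Ccl28 was at 11.9, 9.67 and 7.86 FPKM in the sham libraries and 1.31, 1.95 and 2.15 in the UIR libraries (log2 fold change -2.96, SE 0.30, adjusted p = 1.03e-06). Of 65 interleukins, receptors and colony factors 53 rose and 6 fell, and of 60 interferon-induced genes 54 rose and 0 fell (median 2.11), such as the antiviral Oasl2 at 3.19, 3.35 and 3.52 FPKM in the sham libraries and 37.6, 41.6 and 29.1 in the UIR libraries (log2 fold change 2.91, SE 0.13, adjusted p = 8.20e-10). Of 57 innate receptors 46 rose and 6 fell, the epithelial inflammasome sensor Nlrp6 among the fallers (-2.66). In complement and coagulation 27 of 38 rose and 8 fell. The C1 inhibitor Serping1 (3.60) rose, and factor B (Cfb, -1.25) and protein C (Proc, -3.13) fell.

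Genes of tissues that can cling to or flow through a kidney were checked beside these. Blood genes had 0 of 9 higher and 3 lower, Hbb-b1 among them, with summed levels of 731 to 1611 FPKM after sham and 1324 to 4907 after UIR. Perirenal fat had 2 of 10 members expressed enough to test (2 lower, or 0 without scaling factors), adrenal gland 1 of 12 (1 not called) and skeletal muscle 4 of 10 (2 higher, with a summed level of at most 7.46 FPKM). Liver genes fell in 5 of 6 cases, among them Alb (-4.63), which the tubule also transcribes at a low level. Their part in the results was not tested.

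**Figure D4:**
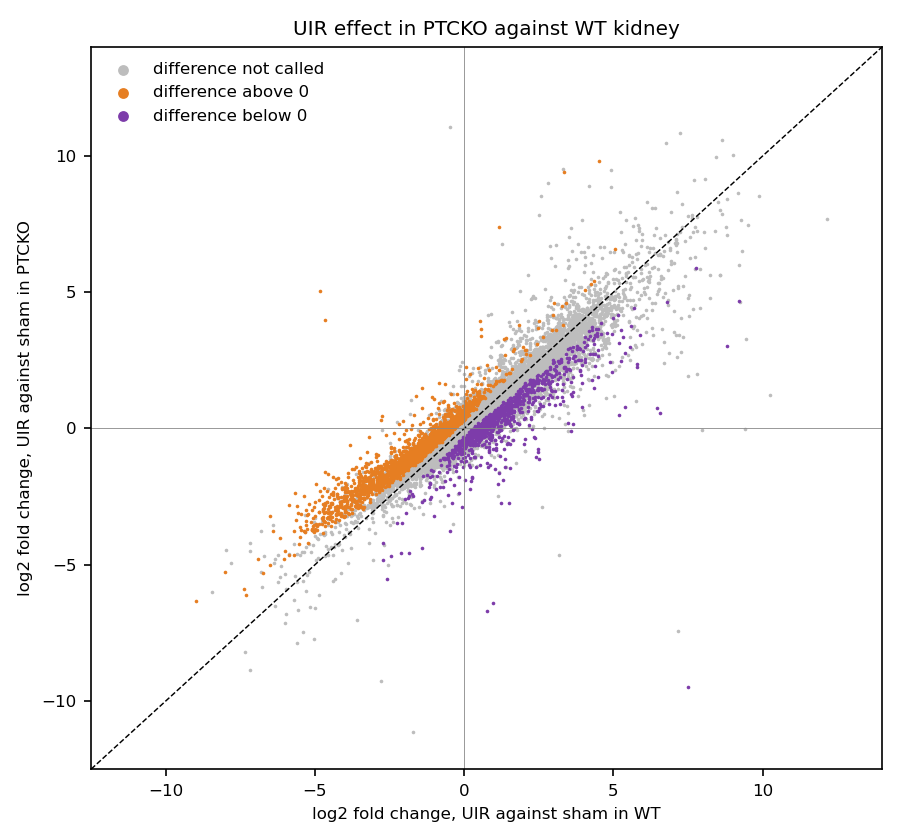
Log2 fold change of UIR against sham in PTCKO kidney (vertical axis) against that in WT kidney (horizontal axis) for the 15322 genes tested; orange points are the 2203 genes whose difference was called above 0, purple points the 1085 called below 0, and the dashed line marks equal effects. Of the orange points, 1469 are genes that fell in PTCKO by less than in WT.

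The UIR effect in PTCKO differed from that in WT, by the interaction term of the same fit, for 3288 genes (21.5%), 2203 with a difference above 0 (14.4%) and 1085 below 0 (7.08%). Among genes that fell in PTCKO, 1469 fell by less than in WT and 290 by more, and among genes that rose, 465 rose by less and 343 by more. Genes called in both genotypes with opposite signs numbered 101. The split depended on scaling, with 1218 above 0 and 2579 below 0 without scaling factors, and the total ran from 1743 to 4565 when any of the 12 libraries was left out. Among the WT libraries it came to 2186 with sham 3 left out and 1743 with UIR 1 left out, and among the PTCKO libraries to 2054 with UIR 1 and 1743 with UIR 3 left out.

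Counts by gene list follow, with ranges over the other scalings, tools and filters. Over all genes tested, 14.4% had a called difference above 0 and 7.08% below 0. Differences above 0, smaller falls in PTCKO, were called for 20 of 24 sodium-coupled uptake genes (range 16 to 20, medians -2.44 in PTCKO and -3.64 in WT), 36 of 38 complex I genes (range 29 to 37, medians -1.10 and -1.96) and 13 of 14 genes of gluconeogenesis and fructose use (range 10 to 13). For S3 markers they were called for 1 of 13, with 2 below 0 (range 1 to 2, medians -4.52 and -4.32). Thick ascending limb genes had 0 above and 5 of 16 below 0 (range 3 to 8), larger falls in PTCKO. Sham levels of both lists differed between genotypes. Summed FPKM of S3 markers was 2282, 2542 and 1907 in the PTCKO sham and 1374, 1557 and 1379.6 in the WT sham libraries, and 163, 213 and 251 and 155, 175 and 131 after UIR. For the thick ascending limb it was 2218, 3404 and 1830.2 and 1775, 1701 and 1556 after sham and 649, 699.8 and 983 and 769.7, 1014 and 708 after UIR. Every PTCKO sham library thus lay above every WT sham library for both lists, while UIR libraries overlapped. For sodium-coupled uptake it was 6491, 6207 and 7193 and 7621, 7351 and 7479 after sham, PTCKO below WT, and 1734, 1406 and 2209 and 534, 971 and 647 after UIR, PTCKO above WT. Complex I genes did the same, at 9653 to 10625 and 10912 to 13350 after sham and 5601 to 7212 and 4581 to 5222 after UIR. Genes of gluconeogenesis and fructose use also lay below WT after sham and above WT after UIR. Slc12a1 differed by -1.75 (SE 0.35, adjusted p = 0.00675), and in WT it had 79.0, 79.6 and 85.8 FPKM in the sham libraries and 106, 135 and 78.2 in the UIR libraries. Its PTCKO sham libraries lay above all its WT sham libraries. Cytosolic ribosomal protein genes had 51 of 78 above 0, larger rises in PTCKO, a count that ranged from 11 to 65. Their summed FPKM was 27682, 30048 and 28302 in the PTCKO sham libraries, below 33355, 32095 and 39480 in the WT sham libraries. After UIR the genotypes overlapped, at 74382, 60543 and 72765 in PTCKO and 58449, 60119 and 70651 in WT. Matrix glycoproteins had 14 of 49 below 0 (range 14 to 29) and interferon-induced genes 13 of 60 (range 10 to 28), smaller rises. Macrophage genes had 0 above and 3 of 35 below 0 (range 3 to 14), the latter near the 7.08% of all genes.

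Single genes with the largest differences had distinct levels in the WT libraries. Gsta2, a glutathione transferase, had in PTCKO 334, 285 and 377 FPKM in the sham libraries and 146, 142 and 158 in the UIR libraries. In WT it had 625, 456 and 492 FPKM in the sham libraries and 26.3, 49.9 and 32.2 in the UIR libraries, a difference of 2.89 (SE 0.29, adjusted p = 0.00128). The calcium-binding protein Calb1 of the distal nephron had in PTCKO 146, 121 and 144 FPKM in the sham libraries and 18.5, 13.9 and 50.8 in the UIR libraries. In WT it had 159.5, 143 and 134 FPKM in the sham libraries and 1.75, 5.38 and 5.03 in the UIR libraries, a difference of 3.08 (SE 0.62, adjusted p = 0.00704). Cyp4f18, a cytochrome of leukocytes, had in PTCKO 0.27, 0.46 and 0.31 FPKM in the sham libraries and 7.63, 8.54 and 6.46 in the UIR libraries. In WT it had 0.31, 0.40 and 0.63 FPKM in the sham libraries and 0.96, 1.15 and 1.16 in the UIR libraries, a difference of 3.44 (SE 0.37, adjusted p = 0.00137). Fgg, a fibrinogen chain, rose in PTCKO, with 4.90, 4.98 and 5.57 FPKM in the sham libraries and 22.9, 11.1 and 27.0 in the UIR libraries, while its WT libraries had 6.84, 6.56 and 6.28 FPKM in the sham libraries and 1.50, 4.51 and 6.24 in the UIR libraries, a difference of 2.87. For Gsta2, Calb1, Cyp4f18 and Fgg every PTCKO UIR library lay above every WT UIR library. These genes were named for large differences in the same libraries, so that gap follows in part from the choice. The matricellular protein Smoc2 rose by less in PTCKO, with 1.21, 3.75 and 1.13 FPKM in the sham libraries and 27.5, 24.7 and 40.5 in the UIR libraries, than in WT, with 0.26, 0.59 and 0.21 FPKM in the sham libraries and 32.3, 32.6 and 38.0 in the UIR libraries (difference -2.48). PTCKO sham 2 was the highest of its group, and without it the rise of Smoc2 was 4.20 (from 3.42) and the difference -1.69. The difference was no longer called without WT sham 3 (-2.23). Without PTCKO UIR 3 the fall of Calb1 was -3.63 (from -2.80) and its difference 2.26.

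The 3 UIR libraries were not alike in every respect. Summed FPKM of sodium-coupled uptake genes was 1734, 1406 and 2209, of S3 markers 163, 213 and 251 and of organic ion transporters 629.5, 660.1 and 844 in UIR 1, 2 and 3, so UIR 3 kept the most of each. B and plasma cell genes summed to 631, 252 and 313. Jchain, the joining chain of secreted antibodies, was at 10.3, 5.98 and 7.13 FPKM in the sham libraries and 314, 38.2 and 71.5 in the UIR libraries (log2 fold change 3.66, SE 0.69, adjusted p = 3.14e-04), or 2.31 without UIR 1. Slpi, an antiprotease of epithelia, was at 0.38, 0.76 and 0.53 FPKM in the sham libraries and 88.6, 9.68 and 8.26 in the UIR libraries (log2 fold change 5.45, SE 1.23, adjusted p = 0.00126), or 3.47 without UIR 1, and Sugct, a mitochondrial transferase of the tubule, at 87.4, 79.0 and 82.0 FPKM in the sham libraries and 4.15, 0.49 and 11.8 in the UIR libraries (log2 fold change -4.41, SE 0.63, adjusted p = 2.81e-05), or -5.78 without UIR 3. All of these kept their direction in each library left out.

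**Figure D5:**
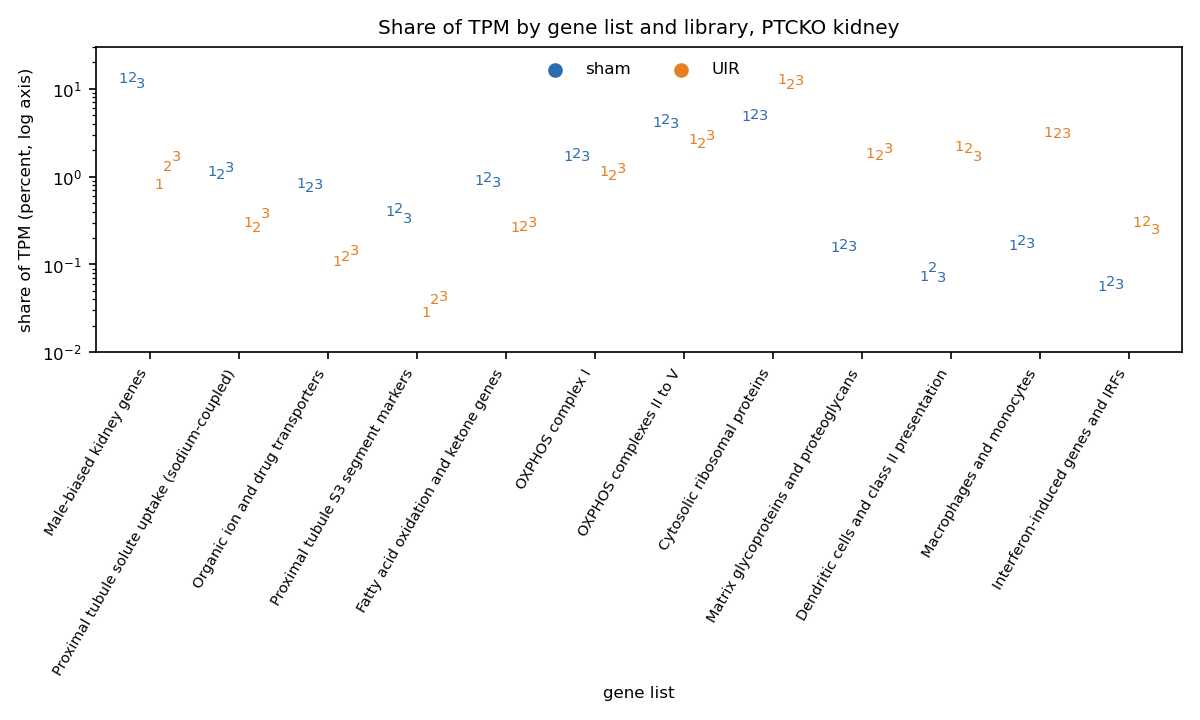
Share of TPM (percent, log axis) held by gene lists in each of the 3 sham (blue) and 3 UIR (orange) libraries of PTCKO kidney, each library drawn as its replicate number. Every list shown separates the groups, with the transport, mitochondrial and male-biased lists lower and the ribosomal, immune and matrix lists higher after UIR.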

How the data were processed

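Kidney RNA of 12 libraries was compared, 3 per group, with groups taken from the library titles. Per the submitters' processing notes, Bowtie2, RSEM and DESeq2 were used with mouse build GRCm38.p6, with no versions given. The deposited table holds RSEM expected counts, FPKM and TPM per gene and library, all computed by the authors. Expected counts were rounded, filtered (filterByExpr), TMM-scaled and tested in edgeR 4.0.16 (R 4.3.3) by quasi-likelihood on all 12 libraries, 1 coefficient per group, leaving 8 residual degrees of freedom. Genes with a Benjamini-Hochberg adjusted p under 0.05 were called, and log2 fold changes carry the fit's standard error. FPKM and TPM serve as levels and shares. limma 3.58.1 and DESeq2 1.42.0 were alternatives. RSEM shares reads among similar genes, so multigene families are uncertain, and the sources do not state strandedness. The procedure was tested on simulated data in which few genes changed between the PTCKO groups, so that test does not bear on the choice of scaling.

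The comparison and gene lists were chosen with earlier results of these data known. Genes were named as the 12 largest rises and falls (mean FPKM of at least 5, groups not overlapping), the 10 largest gains and losses of mean TPM, up to 4 members of each list by p and 4 by level, the 6 highest and 6 lowest differences between genotypes, and the 8 most variable UIR genes. Asns, Bid, Bmp7, Ccl28, Cd38, Cfb, Cldn12, Col4a3, Col4a4, Cox6b2, Cyp1b1, Itgb8, Lhx1, Lpl, Ly6g, Mertk, Met, Nlrp6, Nnmt, Parp14 and Proc were chosen after their values were seen. Some genes that this rule names are not reported here. Promoters came from RefSeq tables of GRCm38.p6, matched by gene.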

Additional observations from a re-analysis of the deposited data

Results flagged for a closer look

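For the named genes below, the UIR effect differed between PTCKO and WT by the interaction term of the edgeR fit at an adjusted p under 0.05, out of 3288 such genes among 15322. Differences are PTCKO minus WT on the log2 scale, and no cause was tested. Each compares 1 change with another and is not a difference in level after UIR. Calls made without 1 library are given at the end.

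Falls of transport, brush border and endocytic genes were smaller in PTCKO for Slc34a1 (1.96), Cubn (1.61), Fxyd2 (1.37), Acy3 (1.36), Lrp2 (1.22) and Cldn2 (1.01). Distal and hormone-response genes did so too, in Calb1 (3.08), Aqp2 (2.55), klotho (1.44 for Kl), Pth1r (1.34), Vdr (0.85) and Bmp7 (0.76). Slc12a1 of the thick ascending limb fell in PTCKO, while its log2 fold change in WT, -0.33, did not pass the test (difference -1.75).

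Metabolic genes with smaller falls were Gsta2 (2.89), Hpd (2.63), Pck1 (1.93), Gpx3 (1.87), Ass1 (1.61), Haao (1.39), Acmsd (1.35), Kmo (0.89), Gapdh (0.87), Pgk1 (0.72), Cat (0.63), Nqo1 (0.45), Ndufs1 (0.54), Hspd1 (0.51) and Pink1 (0.44). Cox6b2 rose by more (0.77), and the desaturase Scd1 fell by more (-1.48). Among transcription factors Hlf (1.59), Ppara (1.15), Hnf4a (0.84) and Klf15 (0.83) fell by less, and Maff rose by more (0.66). Plasma protein and innate genes with smaller falls were Alb (1.07), Proc (1.16), Cfb (1.21) and Nlrp6 (1.27).

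Of the genes that rose in PTCKO, positive differences were called for Cyp4f18 (3.44), Jchain (3.09), Fgg (2.87, which fell in WT), Cdkn1a (1.31, with lower levels in PTCKO than in WT after both sham and UIR), the immunoproteasome genes Psmb10 (0.84) and Psmb8 (0.68) and ribosomal Rps27 (0.54). Cyp4f18 and Jchain did not pass the test in WT. Smaller rises were called for Smoc2 (-2.48), Cldn3 (-1.05), Abcc3 (-1.05), Cyp1b1 (-0.94), Cp (-0.86), Serping1 (-0.69), Timp2 (-0.63) and Oasl2 (-0.57). Larger falls were called for Itgb8 (-1.45) and Hsph1 (-0.90), of which Itgb8 did not pass the test in WT. Mertk (-0.95) was called lower in PTCKO and higher in WT, with log2 fold changes of -0.60 and 0.35. Sirpb1b (5.32), at 0 in every PTCKO sham library, and Hbb-b1 (-7.37) and H3c14 (-17.002), with libraries at or near 0, were called too, but their fitted values, those below included, are no measure of size, and Hbb-b1 did not pass the test in WT.

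Of these 60 genes, 22 were no longer called when 1 of the 12 libraries was left out, in at least 1 of the 12 cases: Abcc3, Alb, Aqp2, Cat, Cldn3, Cox6b2, Hnf4a, Hpd, Hspd1, Hsph1, Itgb8, Jchain, Maff, Ndufs1, Nqo1, Oasl2, Pink1, Psmb8, Rps27, Serping1, Sirpb1b and Smoc2. WT UIR 1 removed the most calls, 19. Without PTCKO UIR 3 the difference of Calb1 was 2.26, without PTCKO sham 2 that of Smoc2 was -1.69, and without WT UIR 3 that of Jchain was 3.73. Without WT sham 1 that of Sirpb1b was 5.93, and for Hbb-b1 the values were -8.48 without WT sham 2 and -6.29 without PTCKO sham 1. Under the other settings run, no difference among these genes changed sign, and between 0 and 18 of them lost the call, the most under quantile normalisation. For H3c14 the value was -16.34 without WT UIR 3.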

How the results depend on the processing

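The number of genes called between UIR and sham in PTCKO, 11305, stayed within 1.5 times under every alternative run, but its split did not. Genes called higher and lower were 9436 and 2791 without scaling factors, and 2689, 2672 and 2567 were called lower by limma on log2(FPKM + 1), log2(FPKM + 0.1) and log2(TPM + 1). The share of calls that were higher was 52.8%, against 77.2% without scaling factors, 75.8%, 75.9% and 76.5% by those limma fits. Leaving out each PTCKO library gave 10675 to 11040 calls, 5636 to 5804 higher, 5039 to 5236 lower and 5813 to 6029 of at least 2-fold. For differences between genotypes, 1218, 1292, 1277 and 912 were above 0 and 2579, 2479, 2308 and 3937 below 0 under the same 4 settings in that order, and leaving out a library gave 1743 to 4565 in all, 1217 to 2800 above and 509 to 1765 below 0 (in all and below 0, 2186 and 639 without WT sham 3, 1743 and 509 without WT UIR 1, 2054 and 591 without PTCKO UIR 1 and 1743 and 526 without PTCKO UIR 3; below 0, 687 without PTCKO sham 1 and 1765 without PTCKO UIR 2). Medians that turned sign, in that order, were those of glycolysis (0.13, 0.14, 0.15 and 0.16), proteasome subunits (0.29, 0.25, 0.25 and 0.27, and 0.13 under quantile normalisation), the EGF and FGF families (0.30, 0.21, 0.23 and 0.23), NEDD4-family ligases (0.019, 0.050 and 0.0046, without log2(FPKM + 1)), chaperones (0.0077 on log2(TPM + 1)), and, under quantile normalisation, blood (-0.0378) and adrenal genes (-0.76). Wwp2 turned to 0.23, 0.31, 0.33 and 0.34 and Gpx3, under quantile normalisation, to 0.11. The cause was not tested. Of 180 named genes, the others kept their direction in the comparison of UIR with sham in all settings, and Gapdh, Hbb-b1, Mertk, Plau, Slpi and Wwp2 lost their call in some of them. With the replicate number as a block 11302 genes were called, 5956 higher and 5346 lower, and 3274 differences. Deviations of sham and UIR libraries of the same number correlated at -0.055, -0.079 and -0.006, and those of different numbers at -0.026 to 0.074. With so few libraries this cannot settle whether the numbers pair them. The labels do not say so either, and the main fit treated the libraries as unpaired. With the 6 PTCKO libraries alone 10816 genes were called. Depth limits genes near 0, whose fitted fold changes move with single libraries.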

Other observations

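Annexins and S100 proteins, calcium-binding proteins of membranes and of myeloid cells, were called higher in 19 of 24 cases and lower in 3 (median log2 fold change 1.89, against 0.06 for all genes). S100a6, a small calcium-binding protein, was at 8.48, 9.87 and 8.19 FPKM in the sham libraries and 364, 251 and 374 in the UIR libraries (log2 fold change 4.71, SE 0.19, adjusted p = 3.46e-10). Anxa3, which binds phospholipids, was at 6.01, 6.84 and 5.26 FPKM in the sham libraries and 95.3, 84.8 and 80.9 in the UIR libraries (log2 fold change 3.33, SE 0.11, adjusted p = 1.49e-10). Sham and UIR libraries did not overlap for either gene, which in TMM-scaled CPM held for 76.5% of all genes tested.

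Hbb-b1 and Hbb-bs are adult beta-globin genes of alternative haplotypes, Hbb-bs being that of C57BL/6. In PTCKO, Hbb-b1 had 232, 5.13 and 106 FPKM in the sham libraries and 2.19, 0.79 and 2.82 in the UIR libraries, and Hbb-bs 207, 427 and 107 FPKM in the sham libraries and 374, 790.5 and 1308 in the UIR libraries. In WT, Hbb-b1 had 163, 392 and 8.11 FPKM in the sham libraries and 389.7, 678 and 677 in the UIR libraries, and Hbb-bs 143, 1.15 and 301 FPKM in the sham libraries and 323, 549.6 and 3.16 in the UIR libraries. The libraries labelled PTCKO sham 2 and WT sham 3 had mainly Hbb-bs, the libraries labelled WT sham 2 and WT UIR 3 mainly Hbb-b1, and the PTCKO UIR libraries Hbb-bs alone above 3 FPKM. Ren2 had 0.06, 23.9 and 0 FPKM in the sham libraries and 0, 11.5 and 0 in the UIR libraries in WT and, in PTCKO, was present in all sham libraries and at 0 in all UIR libraries. Ren2 is a second renin gene that only some mouse strains carry. The cause of these differences between libraries was not tested.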
